A study of Homo sapiens with 12 samples.

Results

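SMAGP, CTLA4, PMP2, TP53INP2, TMEM156 and PRR9 are 6 of the 14580 genes measured in A2058 cells treated with kinase inhibitors, a histone deacetylase inhibitor or both. They were chosen by their departure from additivity: their level under the combined treatment lay far from what the separate treatments add up to, with SMAGP, CTLA4 and PMP2 above that sum, and TP53INP2, TMEM156 and PRR9 below it. Those departures chose the genes, and they and the separate effects they are made of are given below as descriptions without a test.

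A2058 is an established human melanoma cell line, and every group was the same line, treated for 24 h and measured on 3 Affymetrix arrays. DTE cells received dabrafenib at 100 nM, trametinib at 10 nM and entinostat at 1 µM, DT cells received dabrafenib and trametinib at those doses, E cells received entinostat at that dose, and DMSO cells received the solvent. The titles of the arrays speak of biological replicates and the series design of technical triplicates, so the p-values below rest on the scatter among 3 arrays a group, and that scatter may be technical. A single line at a single time and dose limits what the groups can model.

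Dabrafenib inhibits RAF kinases and trametinib inhibits MEK, the kinase below RAF, so that together they shut off the ERK signal that drives transcription in melanoma cells with an activated BRAF. Entinostat inhibits class I histone deacetylases, enzymes that remove acetyl groups from histones and are parts of repressor complexes. Adding log2 effects means multiplying fold changes, so a gene is additive here when entinostat changes its intensity by the same factor with and without the kinase inhibitors. The departure is the log2 effect of entinostat on top of DT (DTE minus DT) less the log2 effect of entinostat alone (E minus DMSO).

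Of 7 melanoma and melanocyte markers, all measured, 7 lay above the median gene in DTE and DT and 6 in E and DMSO. Of the markers of other cell types, 2 of 3 fibroblast markers (LUM and THY1), at most 1 of 4 epithelial markers and 0 of 6 blood cell markers did so in any group. MBP, the only Schwann cell marker measured, did so in DTE, DT and DMSO but not in E. Within groups, arrays correlated with each other at 0.990 to 0.995. The mean of the array medians was 4.66 in DTE, 4.48 in DT, 4.88 in E and 4.68 in DMSO on the log2 scale, so the groups differed in general brightness. The lower quartile of genes was 2.99 in DTE, 2.91 in DT, 3.12 in E and 2.98 in DMSO on the log2 scale, and levels below it were not shown to lie above background. In RNA from a whole culture, fewer cells with a transcript and less transcript per cell cannot be told apart.

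The sequence before the transcription start is shown for the genes below the sum, after 8 motifs had been searched for. The AP-1 motif and the cAMP response element were singled out for display once the matches were seen. The 250 bases upstream of the RefSeq start (GRCh38.p14) are printed 5′ to 3′ on the gene's own strand, for TMEM156 chr4:39032410-39032659 on the minus strand, for PRR9 chr1:153217334-153217583 on the plus strand and for TP53INP2 chr20:34704094-34704343 on the plus strand. Capitals mark TGACTCA, a match to the AP-1 motif TGANTCA, in TMEM156 and PRR9, and the cAMP response element TGACGTCA in TP53INP2.
TMEM156: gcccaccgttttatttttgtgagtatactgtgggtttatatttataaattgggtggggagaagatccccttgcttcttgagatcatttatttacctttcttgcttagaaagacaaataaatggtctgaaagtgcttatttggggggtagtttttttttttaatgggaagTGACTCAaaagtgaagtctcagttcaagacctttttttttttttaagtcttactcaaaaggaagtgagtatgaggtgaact
PRR9: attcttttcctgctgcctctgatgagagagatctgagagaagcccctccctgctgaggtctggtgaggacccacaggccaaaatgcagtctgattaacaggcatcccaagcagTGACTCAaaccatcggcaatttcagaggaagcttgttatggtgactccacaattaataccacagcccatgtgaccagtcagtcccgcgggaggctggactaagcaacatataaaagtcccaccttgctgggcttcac
TP53INP2: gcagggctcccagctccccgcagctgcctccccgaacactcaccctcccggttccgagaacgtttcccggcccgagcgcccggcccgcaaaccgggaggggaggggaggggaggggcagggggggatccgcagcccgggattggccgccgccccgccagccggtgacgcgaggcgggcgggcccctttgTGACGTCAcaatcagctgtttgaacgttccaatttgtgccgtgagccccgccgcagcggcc
AP-1 is the family of FOS and JUN dimers, whose FOS members are induced by ERK signalling, and the cAMP response element is bound by CREB and ATF factors. The AP-1 match begins 81 bases before the start in TMEM156 and 137 bases before it in PRR9, and the element in TP53INP2 begins 61 bases before the start of the window shown. The table has another start for TP53INP2, and the window before that one holds no such element. TMEM156 and PRR9 also share the letters of the TATA box (TATAAA, in 10.7% of all windows), and SMAGP, CTLA4, TP53INP2 and TMEM156 share CCAAT (in 32.0%). The positions of TATAAA differ: -29 to -24 from the start in PRR9 and -208 to -203 in TMEM156. TMEM156 has further matches on the opposite strand at -216 to -211 and -210 to -205. Both strands were searched, and matches can overlap, as those of TATAAA and CCAAT do in TMEM156. Of 35116 such windows in the table, 6.57% held the AP-1 motif and 1.65% the cAMP response element. Among other genes with a called departure, the AP-1 motif was in 4 of 51 below the sum (7.84%) and 7 of 63 above it (11.1%), against 742 of 10555 measured genes with a window (7.03%). The cAMP response element was in 0 of the 51, 2 of the 63 (3.17%) and 289 of the 10555 (2.74%). A match of letters describes the sequence and shows neither binding nor a cause. Windows were found for 5 of the 6 genes, and those of SMAGP and CTLA4 held neither motif. No window is given for PMP2.

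SMAGP encodes a small glycoprotein of the cell membrane found at sites of cell adhesion in epithelia. Its intensity was 121, 115 and 134 in DTE arrays, 68.3, 57.9 and 50.6 in DT arrays, 312, 239 and 300.3 in E arrays and 392, 356 and 429 in DMSO arrays. No group's arrays overlapped another's, with DMSO highest, then E, DTE and DT. SMAGP was 6.69-fold lower in DT than in DMSO (log2 -2.74, SE 0.14) and 1.39-fold lower in E than in DMSO (log2 -0.47). Added to DT, entinostat went with a level that was higher by 1.07 on the log2 scale. The sum of the separate effects gives a log2 level of 5.40 in DTE, an intensity of 42.1, and the observed mean was 6.94 ± 0.11 (SD, n = 3), 2.92-fold above it. Summed intensities of the 4 of 5 measured epithelial markers were 68.3 to 80.4 in DTE, 53.9 to 65.2 in DT, 111 to 126 in E and 75.5 to 99.3 in DMSO, and their part in the SMAGP levels was not tested.

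CTLA4 encodes the inhibitory T cell receptor for CD80 and CD86 that checkpoint antibodies block. The DTE arrays read 14.1, 14.1 and 16.5 intensity units, the DT arrays 10.2, 8.61 and 9.23, the E arrays 20.7, 24.1 and 21.6, and the DMSO arrays 37.5, 39.3 and 44.8. The order was that of SMAGP, again without overlap between any groups. The DT level was 4.34-fold below DMSO (log2 -2.12, SE 0.12) and the E level 1.83-fold below DMSO (log2 -0.87), whereas DTE lay above DT by 0.68 on the log2 scale. The separate effects sum to a log2 level of 2.35, against an observed 3.89 ± 0.13 in DTE (SD, n = 3), 2.92-fold higher. That sum lies below the lower quartile of genes in DTE, a range in which levels were not shown to be measurable. Of 11 blood cell markers, 6 were measured (CD4, CD8A, CD2, LCK, FOXP3 and CD14), and 0 of them lay above the median gene in any group. Their summed intensities were 65.2 to 73.4 in DTE, 64.3 to 71.8 in DT, 77.9 to 82.2 in E and 72.7 to 82.0 in DMSO, and their part in the CTLA4 levels was not tested.

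PMP2 encodes a fatty-acid-binding protein of peripheral myelin that is made by Schwann cells, which like melanocytes derive from the neural crest. Its intensity reached 33.1, 23.9 and 34.5 in DTE arrays, against 7.39, 7.03 and 8.86 in DT arrays, 9.45, 9.91 and 8.44 in E arrays and 5.81, 8.82 and 6.31 in DMSO arrays. All DTE arrays lay above the other 9 arrays, while DT, E and DMSO each overlapped the others. The separate differences from DMSO were small, 0.17 for DT and 0.43 for E on the log2 scale (SE 0.17 each), and that of DTE was 2.13, a 4.38-fold higher intensity. The sum gives a log2 level of 3.38 and an intensity of 10.4, and DTE averaged 4.91 ± 0.29 (SD, n = 3), 2.89-fold above it. PMP2 was below the lower quartile of genes in DMSO and close above it in DT (2.95 against 2.91, log2) and E (3.21 against 3.12, log2). The size of differences measured from these groups, and the sum made of them, are therefore uncertain. Of 3 Schwann cell markers only MBP was measured, at intensities of 36.0 to 41.2 in DTE, 38.4 to 42.5 in DT, 26.2 to 30.0 in E and 29.7 to 34.8 in DMSO. Of 4 fibroblast markers 3 were measured, in the same order of groups as PMP2: their summed intensities were 439 to 600.5 in DTE, 185 to 246 in DT, 301 to 359 in E and 166 to 193 in DMSO. Most of that sum was LUM, a matrix proteoglycan, at 8.83 in DTE, 7.49 in DT, 8.13 in E and 7.20 in DMSO on the log2 scale, while DCN was below the lower quartile in every group. The part of either marker group in the PMP2 levels was not tested.

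TP53INP2 encodes a protein that shuttles from the nucleus to autophagosomes, binds LC3 and GABARAP proteins and promotes autophagy. Of all 14580 genes as deposited it had the largest departure below the sum, and it ranked 2 after quantile normalization. Its intensity was 152, 148 and 130.1 in DTE arrays, 325, 355 and 296 in DT arrays, 101, 89.2 and 101 in E arrays and 69.5, 68.3 and 60.2 in DMSO arrays. The groups did not overlap, with DT highest, then DTE, E and DMSO. The level was 4.93-fold higher in DT than in DMSO (log2 2.30, SE 0.12) and 1.47-fold higher in E than in DMSO (log2 0.56), but lower in DTE than in DT by 1.18 on the log2 scale. An intensity of 479 is the sum of the separate effects (log2 8.90), and DTE averaged 7.16 ± 0.12 on the log2 scale (SD, n = 3), 3.35-fold below it.

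TMEM156 encodes a transmembrane protein. The DTE arrays read 4.84, 4.10 and 4.90 intensity units, the DT arrays 3.78, 4.04 and 3.62, the E arrays 18.7, 26.7 and 23.1, and the DMSO arrays 4.55, 8.45 and 5.89. E arrays lay above all others and DT arrays below all others, while DTE overlapped DMSO. The E mean was 3.71-fold above DMSO (log2 1.89, SE 0.18), and the DTE mean was 0.27 above DT on the log2 scale. DT minus DMSO was -0.68 (log2, SE 0.18). The expected level was 3.82 and the observed one 2.20 ± 0.14 (log2, SD, n = 3), 3.07-fold lower. The mean DTE, DT and DMSO levels lay below the lower quartile of genes, and the E level above it. The size of differences measured from the dim groups, and the sum made of them, are therefore uncertain.

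PRR9 encodes a proline-rich protein in the epidermal differentiation complex, a cluster of genes for the cornified layer of skin. Its intensity was 5.63, 4.97 and 6.78 in DTE arrays, 4.99, 6.12 and 6.72 in DT arrays, 22.2, 27.0 and 42.2 in E arrays and 10.2, 10.2 and 10.5 in DMSO arrays. DTE overlapped DT, all of these lay below DMSO, and all E arrays lay above DMSO. The level was 2.84-fold higher in E than in DMSO (log2 1.51, SE 0.19), and it differed between DTE and DT by -0.04 on the log2 scale. DT minus DMSO was -0.81 (log2, SE 0.19). The sum gives a log2 level of 4.07, and DTE averaged 2.52 ± 0.23 (SD, n = 3), 2.91-fold below. DTE and DT lay below the lower quartile of genes, so the size of differences measured from them, and the sum, are uncertain. The E arrays were the most scattered group of any of the 6 genes (SD 0.48 on the log2 scale).

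**Figure D1:**
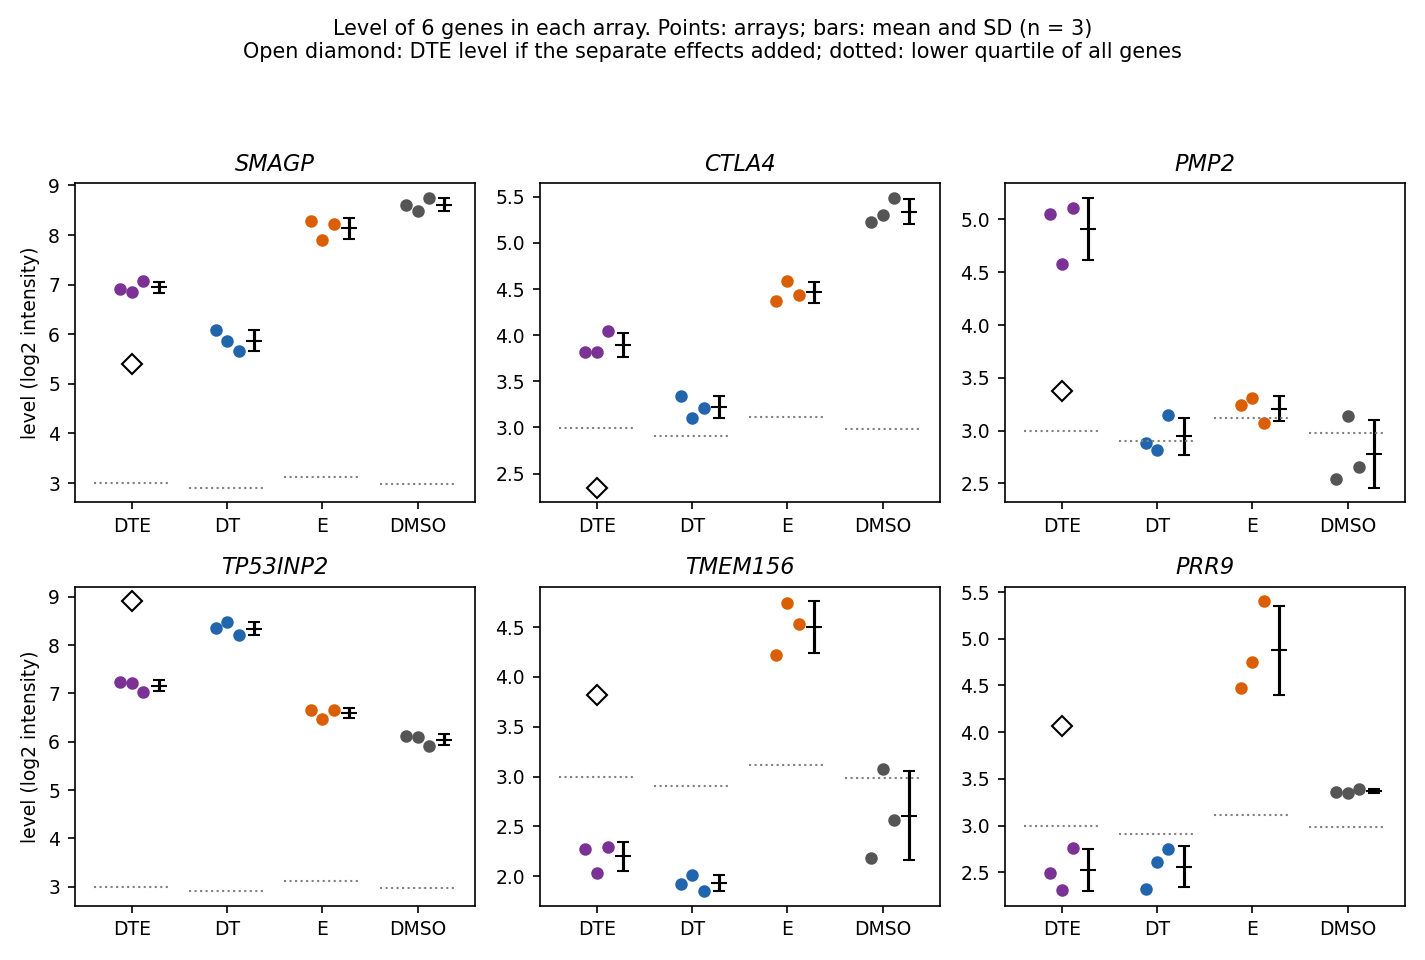
Log2 intensity of each of the 6 genes on every array (points), by treatment group from DTE on the left to DMSO on the right, with the group mean and SD (n = 3), the additive sum for DTE as an open diamond and the lower quartile of genes in each group as dotted lines. SMAGP, CTLA4 and PMP2 lie above their diamonds in DTE and TP53INP2, TMEM156 and PRR9 below theirs, and the TMEM156 and PRR9 levels in DTE and DT fall under the dotted lines.

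The 6 genes reached similar departures along different routes. Entinostat went with a lower level alone and a higher one on top of DT for SMAGP and CTLA4, and with the opposite for TP53INP2. PMP2 had a small entinostat difference alone and one of 1.96 on the log2 scale on top of DT, whereas TMEM156 and PRR9 had theirs alone and little on top of DT. The departures were 1.55 for SMAGP (SE 0.20), 1.55 for CTLA4 (SE 0.17) and 1.53 for PMP2 (SE 0.24) above the sum. Below it they were -1.74 for TP53INP2 (SE 0.17), -1.62 for TMEM156 (SE 0.26) and -1.54 for PRR9 (SE 0.26). Over all genes the median departure was 0.00 and limma called 151 at an adjusted p under 0.05 (1.04%), 82 above and 69 below the sum. That share involves the contrast that chose the genes and is given as their background only.

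**Figure D2:**
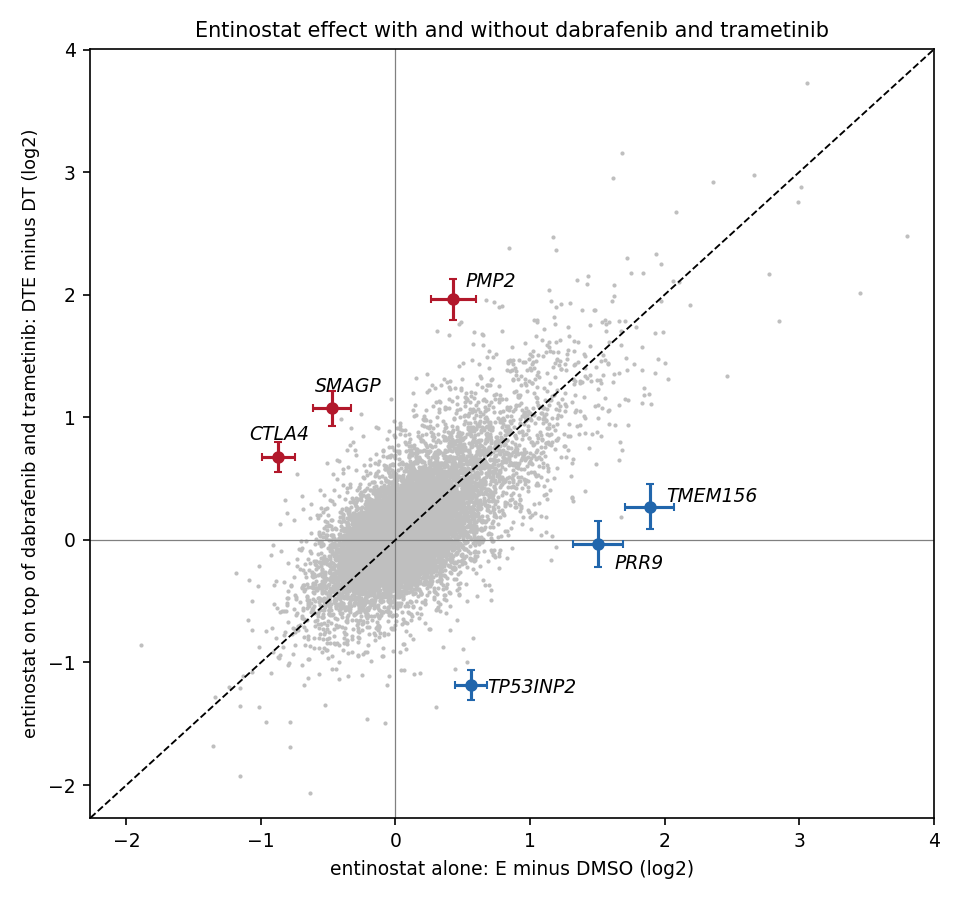
Log2 effect of entinostat alone (E minus DMSO, horizontal axis) and on top of dabrafenib and trametinib (DTE minus DT, vertical axis) for all 14580 genes (grey) and the 6 genes (coloured, with SE). The dashed diagonal is additivity, and the vertical distance from it is the departure, from 1.55 for SMAGP to -1.74 for TP53INP2.

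The edge of the selection was narrow. DKK1, a secreted WNT inhibitor, ranked between CTLA4 and PMP2 with a departure of 1.54 (SE 0.21), and SH3TC2, a Schwann cell protein of endocytic recycling, followed PMP2 at 1.53 (SE 0.21). LRP2, an endocytic receptor, came next at 1.48 (SE 0.16). Below the sum, BCL2A1, an antiapoptotic BCL2 relative, ranked between TP53INP2 and TMEM156 at -1.67 (SE 0.20). ASPA, which splits N-acetylaspartate, and RAP1GAP, a GTPase activator for RAP1, followed PRR9 at -1.52 (SE 0.27) and -1.49 (SE 0.19). Arrays scattered more for PRR9, TMEM156 and PMP2 than for most genes: their residual SDs of 0.285, 0.272 and 0.240 on the log2 scale exceeded those of 93.6%, 91.8% and 85.5% of genes. TP53INP2 and CTLA4 were tighter than most, at 0.118 and 0.124, against a median of 0.168.

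The average effect of each treatment, taken over both levels of the other, is a contrast at right angles to the departure, so its error is independent of the one that chose the genes, and it was tested. It is made of the same 4 group means, however, and a gene set apart in 1 group has a departure and both averages at once. The called averages of TMEM156 and PRR9 come mostly from the E arrays, and those of PMP2 mostly from the DTE arrays. For PMP2, DT minus DMSO was 0.17 and DTE minus E 1.70 on the log2 scale. Its E minus DMSO was 0.43 and its DTE minus DT 1.96. The counts and adjusted p-values below describe the averages and are no separate support for the departures. The average effect of DT is the mean of DT minus DMSO and DTE minus E, and that of entinostat the mean of E minus DMSO and DTE minus DT, each tested with limma over all 14580 genes. For DT, 41.1% of all genes were called (3.7% higher, 37.4% lower), and 6 of these 6 were. With DT, SMAGP fell by 1.97 (SE 0.10, adjusted p = 4.2e-11), CTLA4 fell by 1.34 (SE 0.09, adjusted p = 1.3e-09), PRR9 fell by 1.58 (SE 0.13, adjusted p = 4.2e-08) and TMEM156 fell by 1.49 (SE 0.13, adjusted p = 6.1e-08), all log2. With each array floored at its lower quartile of genes, the TMEM156 value was -0.79 and still called. The lower quartile lies above the mean TMEM156 levels in DTE, DT and DMSO. It lies below TMEM156 in DMSO replicate 2 (8.31 against 8.45, intensity). TP53INP2 rose by 1.43 (SE 0.09, limma adjusted p = 5.1e-10) and PMP2 by 0.94 (SE 0.12, limma adjusted p = 6.9e-06). The median gene was at -0.18, and at 0.00 after quantile normalization.

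With entinostat, 26.7% of all genes were called (19.3% higher, 7.47% lower) and 5 of these 6 were, the median gene being at 0.06 on the log2 scale. PMP2 rose by 1.20 (SE 0.12, limma adjusted p = 4.0e-07), TMEM156 by 1.08 (SE 0.13, limma adjusted p = 3.6e-06) and PRR9 by 0.73 (SE 0.13, limma adjusted p = 3.2e-04). TP53INP2 fell by 0.31 (SE 0.09, limma adjusted p = 0.010), or by 0.50 after median centring. CTLA4 was not called (log2 -0.10, SE 0.09, limma adjusted p = 0.47), and its average joins values of opposite sign, 0.68 on top of DT and -0.87 alone. The averages of SMAGP and TP53INP2 also join opposite signs, as given above. SMAGP was called at 0.30 (SE 0.10, limma adjusted p = 0.031). That call was lost after quantile normalization (0.24, adjusted p = 0.097) and median centring (0.11, adjusted p = 0.42), and when any 1 of 7 arrays was left out (DTE replicate 3, DT replicates 2 and 3, E replicates 1 and 3, DMSO replicates 1 and 2). Its value without 1 array ranged from 0.25 to 0.36. Median centring also turned CTLA4 into a call (-0.28, adjusted p = 0.027).

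**Figure D3:**
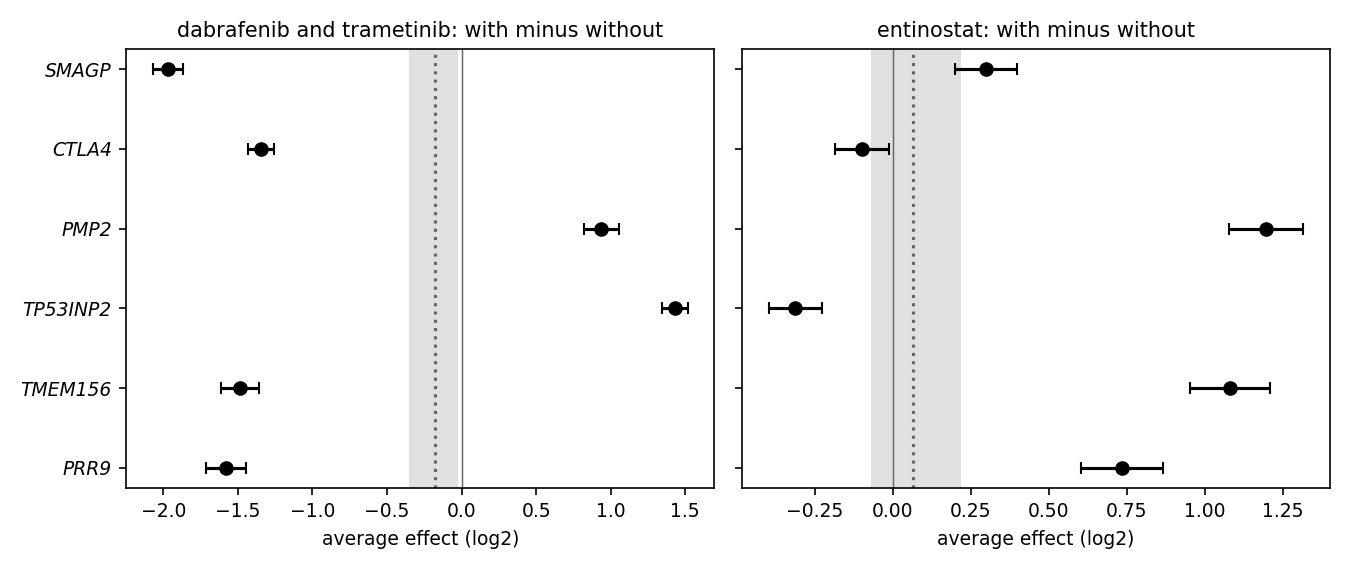
Average log2 effects of dabrafenib with trametinib and of entinostat for the 6 genes (points with SE), with the quartile range of all genes as a grey band and their median as a dotted line. The effect of dabrafenib with trametinib runs from -1.97 for SMAGP to 1.43 for TP53INP2, and that of entinostat from -0.31 for TP53INP2 to 1.20 for PMP2.

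Over the 12 arrays, which share the same 4 treatments, the log2 levels of SMAGP and CTLA4 correlated at 0.956 and those of TMEM156 and PRR9 at 0.945. TP53INP2 mirrored the first pair, at -0.968 with SMAGP and -0.967 with CTLA4. These correlations describe treatment groups more than arrays, since 4 group means carry most of the spread. The genes most like each of the 6 were sought among 1491 genes whose group means spanned at least 1 on the log2 scale. EPHX4, an epoxide hydrolase, led for both SMAGP (r = 0.981) and CTLA4 (r = 0.977), with mean log2 levels of 4.94 in DTE, 4.39 in DT, 5.50 in E and 5.90 in DMSO. SMAGP was followed by CD96 and GPAT3, an enzyme of glycerolipid synthesis, and CTLA4 by CTHRC1 and SH3TC2.

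PMP2 was most like PLK2, a polo-like kinase (r = 0.956), A2M, a protease inhibitor (r = 0.950), and NPNT, a matrix ligand of integrins (r = 0.944). A2M averaged 8.16 in DTE, 5.69 in DT, 5.99 in E and 4.82 in DMSO on the log2 scale. TP53INP2 was most like PMEL, the melanosome fibril protein (r = 0.978), RAP1GAP (r = 0.978) and MDK, a heparin-binding growth factor (r = 0.968). TMEM156 was most like UNC13A, a synaptic vesicle priming protein (r = 0.962), DLX2, a homeobox factor (r = 0.956), and IL31RA, a cytokine receptor chain (r = 0.947). DLX2 also led for PRR9 (r = 0.963), before SAA1, an acute-phase protein (r = 0.956), and MOB3A (r = 0.947).

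**Figure D4:**
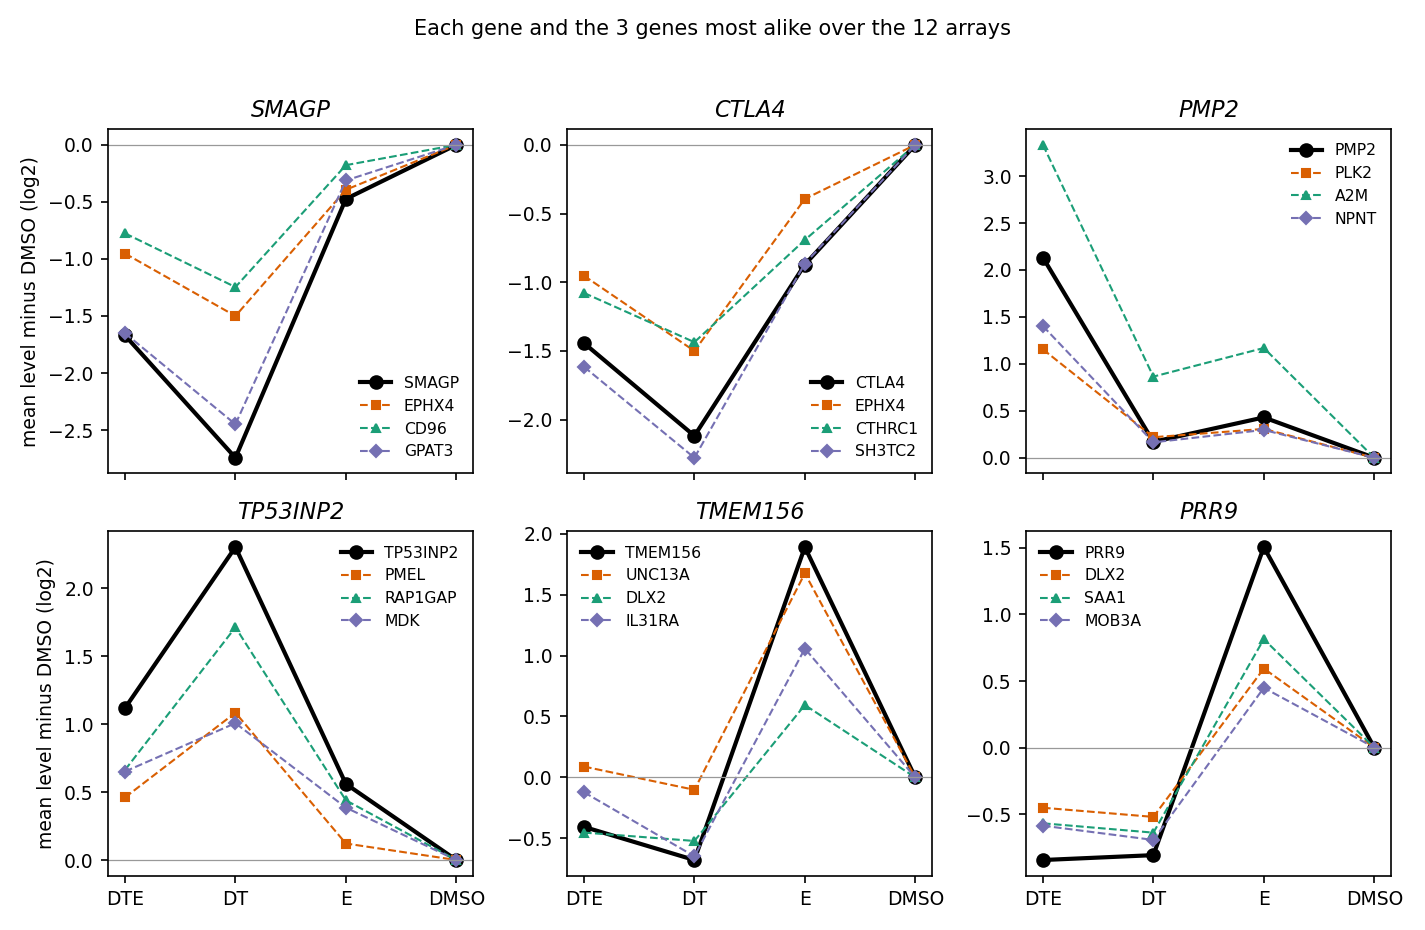
Mean log2 level minus the DMSO mean, by treatment group from DTE on the left to DMSO on the right, for each of the 6 genes (thick line) and the 3 genes most correlated with it over the 12 arrays (thin lines). The lines join groups to show shape only, and the PMP2 panel peaks in DTE whereas the TMEM156 and PRR9 panels peak in E.

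Of 36 measured neighbours on the chromosomes only 1 had a called departure, where 1.04% of all genes did, and the neighbours' departures ran from -0.47 to 0.89. This was FABP5, which binds fatty acids and lies 2 annotated genes from PMP2, with a departure of 0.89 (SE 0.20, limma adjusted p = 0.043). FABP5 averaged 5.07 in DTE, 3.78 in DT, 5.01 in E and 4.60 in DMSO on the log2 scale. Its call was lost when any 1 of 10 arrays was left out, all but DTE replicate 1 and DMSO replicate 2, and after median centring or flooring. CD28 and ICOS, the T cell costimulatory receptors beside CTLA4, were below the lower quartile of genes in every group and had departures of 0.06 and 0.01. MAP1LC3A, the LC3 gene near TP53INP2, had one of -0.47 that was not called. DAZAP2 beside SMAGP (0.05), LELP1 (0.49) and LORICRIN (0.04) beside PRR9, and KLHL5 beside TMEM156 (0.23) were not called either.

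Genes related to each of the 6 were counted without the 6 themselves, with changes on the log2 scale. Over all genes limma called 1.04% of departures (0.562% above the sum, 0.473% below), and 11.5% had an unadjusted p under 0.05. In the costimulation and checkpoint family 0 of 16 departures were called by limma and 1 had an unadjusted p under 0.05, with a median of -0.02. At a share of 1.04% over all genes, lists this short say little by a count of 0. Of that family 5 fell in DT and 0 rose (also 0 at an unadjusted p under 0.05), where 24.1% of all genes fell and 3.23% rose. CD274, the PD-L1 ligand, fell by 1.57 in DT and rose by 1.84 in E (limma adjusted p = 1.1e-06 and 3.2e-07), with a departure of 0.34 that was not called. PDCD1LG2, the PD-L2 ligand, fell by 1.85 in DT and by 0.54 in E. Among 10 lymphocyte and blood cell genes limma called 0 departures against 1.04% of all genes, and 0 had an unadjusted p under 0.05.

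Of the epithelial adhesion and junction genes, 14 of 30 rose in E and 0 fell, also at an unadjusted p under 0.05 (13 and 10 rose after quantile normalization and median centring), where 12.5% of all genes rose and 3.54% fell. JUP, a junction plaque protein, rose by 2.19 and TJP3, a tight junction scaffold, by 1.57. Of these 30 genes only CLDN1, a tight junction claudin, had a called departure, of 1.27 (limma adjusted p = 0.0018), where 1.04% of all genes did. CLDN1 fell by 2.70 in DT. In the fatty acid and retinoid binding family 3 genes were measured, of which FABP5 had the departure above and CRABP2, a retinoic acid carrier, rose by 1.05 in E.

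Of 14 Schwann cell and myelin genes 1 departed above the sum and 1 below, where 0.562% and 0.473% of all genes did, and the median departure was -0.18. The list does not hold SH3TC2, the Schwann cell protein named above by its rank. SOX2, a stem cell factor also found in immature Schwann cells, departed above the sum by 1.27 (limma adjusted p = 0.0022), and POU3F1, a factor that promotes myelination, departed below it by -0.98 (limma adjusted p = 0.0076). ERBB3, the neuregulin receptor, fell by 1.07 in E, and NGFR, the neurotrophin receptor, rose by 1.15 in E.

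Among 31 autophagy genes limma called 0 departures against 1.04% of all genes, and 7 had an unadjusted p under 0.05 (22.6%, against 11.5% of all genes), with a median of -0.03. TP53INP1, the paralogue of TP53INP2, rose by 1.54 in DT (limma adjusted p = 6.7e-07) with a departure of -0.19 that was not called. Autophagy genes in DT had no direction that held across scalings: 4 rose and 6 fell as deposited, where 3.23% of all genes rose and 24.1% fell, 8 rose and 1 fell after quantile normalization, and 8 rose and 2 fell after median centring.

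In the epidermal differentiation complex, 31 of the 58 measured genes were below the lower quartile in all groups. Departures were called in 1 above and 1 below the sum, where 0.562% and 0.473% of all genes were. FLG, which encodes filaggrin, departed above the sum by 1.21 (limma adjusted p = 0.020), and SPRR2A, a cornified envelope protein, below it by -1.32 (limma adjusted p = 0.034). The FLG call was lost when any 1 of 6 arrays was left out (DTE replicates 2 and 3, DT replicates 1 and 2, E replicate 2, DMSO replicate 1), and the SPRR2A call when any 1 of 7 was (DTE replicates 2 and 3, E replicates 1 and 2, DMSO replicates 1, 2 and 3). Both were also lost with dim levels floored. In E 5 of the 58 rose and 1 fell, where 12.5% of all genes rose and 3.54% fell. After quantile normalization 3 rose and 1 fell, and after median centring 3 rose and 5 fell. SPRR2A rose by 1.16 in E, the treatment in which PRR9 was highest.

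Of the genes known to follow ERK activity, 16 of 16 fell in DT, where 24.1% of all genes did, with a median of -3.10 on the log2 scale, though 15 of 16 after quantile normalization or median centring. Departures above the sum were called in 3 of these 16, against 0.562% of all genes: IER3, an immediate-early stress gene (1.29, limma adjusted p = 6.0e-04), EPHA4, an ephrin receptor (1.25, limma adjusted p = 0.0063), and SPRY2, a feedback inhibitor of the pathway (0.87, limma adjusted p = 0.011). Below the sum 0 were called. The departures ran both ways: 10 of the 16 had an unadjusted p under 0.05 (62.5%, against 11.5% of all genes), 6 above the sum and 4 below. DUSP6 (-0.88) and DUSP5 (-0.87) lay below it and were not called as deposited. Of 12 melanocyte differentiation genes, 5 rose in DT and 0 fell (0 at an unadjusted p under 0.05), where 3.23% of all genes rose and 24.1% fell. Quantile normalization gave 9 that rose and median centring 7. In 3 of the 12 the level departed below the sum, against 0.473% of all genes. These were BCL2A1, TYRP1, an enzyme of melanin synthesis (-1.24, limma adjusted p = 0.0031), and PMEL (-0.74, limma adjusted p = 0.034), whose call was lost when any 1 of 9 arrays was left out, all but DTE replicate 1, DT replicate 1 and E replicate 2. The median departure of these 12 was -0.45, against 0.00 for all genes.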

How the data were processed

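RNA of A2058 cells was measured in 4 groups of 3 arrays, grouped by the treatment label. The deposited values are intensities on a linear scale, 1 for each of 29396 probe sets on each array. RMA is named by the submitters' processing notes, with the Transcriptome Analysis Console, without versions. Whether the values were scaled further is not stated in the labels, and the array medians differed. Of the probe sets, 14748 had a gene symbol, all matched by NCBI gene identifier, and 14648 had none. The brightest probe set was taken where a gene had several (156 genes), which left 14580 genes; each of the 6 genes had 1 probe set.

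The deposited intensities were converted to log2 here without a pseudocount or filter, and limma 3.58.1 in R 4.3.3 fitted group means over 12 arrays (8 residual degrees of freedom) with Benjamini-Hochberg adjustment over all genes and a threshold of 0.05. The number of arrays limits the precision. In simulated data, 72 of 100 departures of size 1 and 100 of 100 of size 2 on the log2 scale were called over 14580 genes. There were 10 false calls. The simulated noise was normal and independent between genes, at the residual SD of each gene. It held no shift shared by the genes of an array, whereas the medians of the real arrays differed. The share called in the real data may therefore differ. The 6 genes and all lists were chosen with earlier results of these data known. Other genes named are the 3 most correlated with each of the 6, those adjoining in rank, chromosomal neighbours, and up to 2 called genes each way per list and comparison. Promoter windows and gene order come from RefSeq tables (GRCh38.p14). Alternatives were quantile normalization, median centring, a floor for dim genes, a filter on them, all probe sets, trended and robust variance priors, array weights, a replicate block, leaving out each array, and a linear scale of additivity.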

Additional observations from a re-analysis of the deposited data

Results flagged for a closer look

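The effect of entinostat ran in opposite directions with and without dabrafenib and trametinib in 3 of the 6 genes, with no overlap of arrays in either comparison. The difference was not tested because it chose them. A choice by departure favours such genes, and their share over all genes was not counted, so the 3 are a description only. On the log2 scale, SMAGP was at 1.07 on top of DT and -0.47 alone, a departure of 1.55. CTLA4 was at 0.68 on top of DT and -0.87 alone, also a departure of 1.55, and TP53INP2 at -1.18 on top of DT and 0.56 alone, a departure of -1.74.

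Among probe sets without a gene symbol, which entered no comparison above, 110 of 14648 had a called departure in limma (0.751%), 54 above and 56 below the sum, reaching from -2.28 to 2.01.

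The entinostat effect also differed with and without dabrafenib and trametinib in other named genes by the limma test of the departure. Those chosen for rank or likeness to the 6 genes are descriptions. Above the sum these were DKK1 (1.54), SH3TC2 (1.53), LRP2 (1.48), A2M (1.30), GPAT3 (1.11), CTHRC1 (1.05), EPHX4 (0.94) and NPNT (0.94), and below it BCL2A1 (-1.67), ASPA (-1.52), RAP1GAP (-1.49), UNC13A (-1.48), PMEL (-0.74) and MDK (-0.74). From the lists and neighbours they were IER3 (1.29), CLDN1 (1.27), SOX2 (1.27), EPHA4 (1.25), FLG (1.21), FABP5 (0.89) and SPRY2 (0.87) above, and SPRR2A (-1.32), TYRP1 (-1.24) and POU3F1 (-0.98) below. The call was lost without single arrays for NPNT (DTE replicate 2, DT replicate 1 or DMSO replicate 2) and MDK (DTE replicate 2, DT replicates 1 and 3, E replicates 1 and 3, or DMSO replicates 1 and 2), as well as for those named so above. No group has 4 arrays, so single outlying arrays were not tested for.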

How the results depend on the processing

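The departures of the 6 genes kept their sign under every alternative run, and without 1 array they ranged from 1.43 to 1.66 for SMAGP, 1.47 to 1.61 for CTLA4, 1.35 to 1.70 for PMP2, -1.81 to -1.68 for TP53INP2, -1.85 to -1.41 for TMEM156 and -1.74 to -1.28 for PRR9. On the linear intensity scale they were 173 for SMAGP, 24.0 for CTLA4, 20.4 for PMP2, -214 for TP53INP2, -15.7 for TMEM156 and -20.3 for PRR9. With array weights PMP2 was at 1.24 and TMEM156 at -1.89. TMEM156 has no value where dim genes were left out, and no gene of the 6 had a second probe set to try. Ranks moved: after quantile normalization SMAGP was at 7 above the sum and PRR9 at 11 below it. With each array floored at its lower quartile, PMP2 was at 1 above the sum, and PRR9 at 9 and TMEM156 at 10 below it.

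The 151 called departures became 314 after quantile normalization (174 above, 140 below), 267 after median centring (160 and 107), 230 with a trended prior and 504 with array weights, and 93 to 177 without 1 array, with 100 without DTE replicate 2, 94 and 95 without DT replicates 1 and 3, 93 without E replicate 3 and 97 without DMSO replicate 3. The 5991 calls for the average DT effect (540 higher, 5451 lower) became 3194 after quantile normalization (1728 and 1466), 4288 after median centring (2112 and 2176) and 9324 with a floor. The 3898 for entinostat (2809 higher, 1089 lower) became 4581 (2186 and 2395), 5595 (1670 and 3925) and 7437. Without 1 array they numbered 5033 to 6278 and 3399 to 3915. The cause was not tested. SMAGP's average entinostat effect (0.30) was 0.24 after quantile normalization, 0.11 after median centring and 0.25 to 0.36 without 1 array, and the call was lost in the first 2; CTLA4's was -0.28 after median centring and called. Under the floor, the DT differences of LCE5A and ESRP1 reversed to -0.072 and -0.029.

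Same-numbered arrays correlated at -0.10 to 0.17 in their deviations from group means (18 pairs, median 0.05, 3 over 0.1), against a median of -0.03 for other pairs (2 of 36 over 0.1). Not every pair was over 0.1, and the main fit did not treat the arrays as paired. That does not show that they were unpaired. As a hint from the data, 9 of 12 arrays correlated best with their own number. A replicate block gave 191 departures, 6280 calls for DT and 4124 for entinostat.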
